A study of Arabidopsis thaliana with 8 samples.

Results

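Lipid transfer proteins are small secreted proteins whose 8 cysteines fold around a pocket that holds a fatty acid or another lipid. The genes described here were all those whose array description contains the words lipid transfer protein, which gave 110 probes (reporters) for 103 gene models of 95 genes, out of 27387 gene reporters for 26116 gene models of 24648 genes. The words also caught 3 genes of other families: GLTP1 and GLTP3, which encode glycolipid transfer proteins of the cytosol, and SESA5, which encodes a seed storage albumin. Each of 8 two-colour arrays of Arabidopsis thaliana, accession Col-0, set Q0990 x bdl embryos against Q0990 x Col-0 embryos, both named by cross. Day 3 and day 6 had 4 arrays each, which the series text calls biological replicates. The labels count the days from pollination and the series text from fertilization.

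Q0990 was the female parent of every embryo, so both groups carried it, and the male parent was bdl in the one group and Col-0 in the other. Q0990 is known as a GAL4 enhancer trap line, in which GAL4 drives a target gene in some cells of the plant only. The name bdl stands for bodenlos, a form of the auxin response repressor IAA12 that resists degradation. The labels do not say which construct or allele the bdl parent carried, in which cells it acted, or how many embryos made up a sample. Isolated embryos were the labelled tissue, their total RNA was amplified before labelling, and Q0990 x bdl RNA was in Cy5 on arrays 1 and 2 and in Cy3 on arrays 3 and 4 of each day.

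In Arabidopsis, type I and type II lipid transfer proteins are secreted into the cell wall. The GPI-anchored ones stay on the outer face of the plasma membrane, and LTPG1 and LTPG2 help to bring wax to the surface cuticle. Hybrid proline-rich proteins join a wall-binding stretch to the 8-cysteine domain, and DIR1 carries a signal of systemic resistance. In embryos, LTP1 is a marker of the protoderm, the outer cell layer from which the epidermis and its cuticle arise.

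IAA12 itself was higher in Q0990 x bdl, with a log2 ratio of 0.86 ± 0.094 (SD, n = 4) on day 3 (limma, adjusted p = 2.67e-05) and 1.02 ± 0.091 (SD, n = 4) on day 6 (adjusted p = 1.41e-05). Of 7 embryo markers, 6 were measured, and on day 3 they were above the blank spots in every channel. WOX2, an early apical embryo marker, did not pass the filter on dim reporters. On day 3 the embryo markers were lower in Q0990 x bdl (6 of 6 called lower, median log2 ratio -0.43), while 15 of 16 endosperm genes (median 0.61) and 13 of 18 seed coat genes (median 0.42) were called higher and none lower, where 21.1% of all genes were called higher and 21% lower. Summed endosperm intensity was 29855 to 54834 in Q0990 x bdl and 20459 to 37979 in Q0990 x Col-0 on day 3. The seed coat sums were 95879 to 170107 and 73227 to 112156. By day 6 the medians of these 3 lists were 0.056, 0.014 and 0.0079. Signal from both lists was thus present in both groups, it moved with the day 3 comparison, and its part in the values below was not tested. In bulk RNA, fewer cells of a type and less RNA per cell cannot be told apart. Among day 3 arrays the ratios of arrays 1 and 3 correlated across genes at 0.779 and those of arrays 2 and 4 at 0.749, against 0.575 to 0.632 for the other pairs, although the labels pair arrays 1 and 2 by dye. Median intensity per channel was 226 to 526.

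Of the 95 genes, 82 had a reporter above the 95th percentile of the blank spots in at least 4 of the 16 channel signals and were analysed. 75 of them were tested on both days, 2 on day 3 only and 5 on day 6 only, since those 5 had no values on the day 3 arrays. A gene is called here when its Benjamini-Hochberg adjusted p over all genes tested, from limma, was under 0.05. All ratios are log2 of the Q0990 x bdl signal over that of Q0990 x Col-0, so that a positive value means a higher level in Q0990 x bdl.

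On day 3, 20 of 77 tested members were higher and 13 lower in Q0990 x bdl, and 44 were not called. Over all 19095 genes tested, 21.1% were called higher and 21% lower (42.1% in either direction), so the members' shares of 26.0% and 16.9% were not far from the background. The members' median ratio was 0.10, against 0.0025 over all genes. On day 6 the balance turned: 8 of 80 tested members were higher and 32 lower, shares of 10% and 40%, where 16.2% and 19.4% of all 19474 genes were called (35.6% in either direction). Their median was -0.18, against -0.0023 over all genes. Changes of at least 2-fold numbered 4 rises and no fall on day 3 (background 0.728% and 0.325%), and 2 rises and 10 falls on day 6 (background 0.139% and 1.2%). Of the called members, 13 of 20 rises and 10 of 13 falls on day 3 were smaller than 1.5-fold, and on day 6 this held for 4 of 8 rises and 13 of 32 falls. Leaving out day 3 array 2 or 3 reduced the falls of day 3 to 8 and 7, and leaving out array 1 took the day 3 median to 0.038. The rises of day 6 numbered 5 without day 6 array 1 or 3, and the day 6 median was -0.12 without array 1. All 4 arrays had the sign of the call for 19 of 20 rises and 13 of 13 falls on day 3, and for 8 of 8 rises and 31 of 32 falls on day 6. The exceptions, picked out by that count after the values were seen, were AT2G15325 on day 3 and the DIR1-like gene AT5G55460 on day 6. AT5G55460 gave 0.0036, -0.81, -0.85 and -0.83 on day 6 (mean -0.62 ± 0.42 (SD, n = 4), adjusted p = 0.00561), so that array 1 stood near 0 and the other 3 well below it.

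Counts by class are read against the shares of all genes called, 21.1% higher and 21% lower on day 3 and 16.2% and 19.4% on day 6. Type II genes gave 7 rises and 2 falls among 11 tested on day 3 (median 0.27) and 1 rise and 7 falls among 12 on day 6 (median -0.45). Type I genes gave 4 rises and 1 fall among 10 on day 3 (median 0.13) and 2 rises and 6 falls among 10 on day 6 (median -0.45). GPI-anchored genes had more falls than rises on day 3, with 3 rises and 8 falls among 21 (median 0.011), and gave 1 rise and 6 falls among 22 on day 6 (median -0.078). Hybrid proline-rich genes had 3 rises and 2 falls among 17 on day 3 and 3 rises and 7 falls among 18 on day 6, with the 2 largest rises of day 6. DIR1-like genes had 1 rise among 4 on day 3, and 1 rise and 3 falls among 5 on day 6. Of the 2 anther type genes neither was called on day 3, and the 1 tested on day 6 was not called. Leaving out day 3 array 2, 3 or 4 reduced the day 3 falls of the GPI-anchored class to 4, 4 and 5, and several of the other class counts of 3 or fewer changed by 1 or 2 when an array was left out. As shares of the genes tested, type II rises on day 3 were 63.6% and type II and type I falls on day 6 were 58.3% and 60%, while hybrid proline-rich rises and falls on day 3 were 17.6% and 11.8%, below the shares of all genes. GPI-anchored falls were 38.1% on day 3 and 27.3% on day 6. The type II rises of day 3 and falls of day 6 include AT1G43665, AT1G43666, AT1G43667 and AT5G38195. These are similar genes that are not independent readings, so the type II shares count related signals more than once. The classes hold few genes and were not tested against each other or against all genes.

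**Figure D1:**
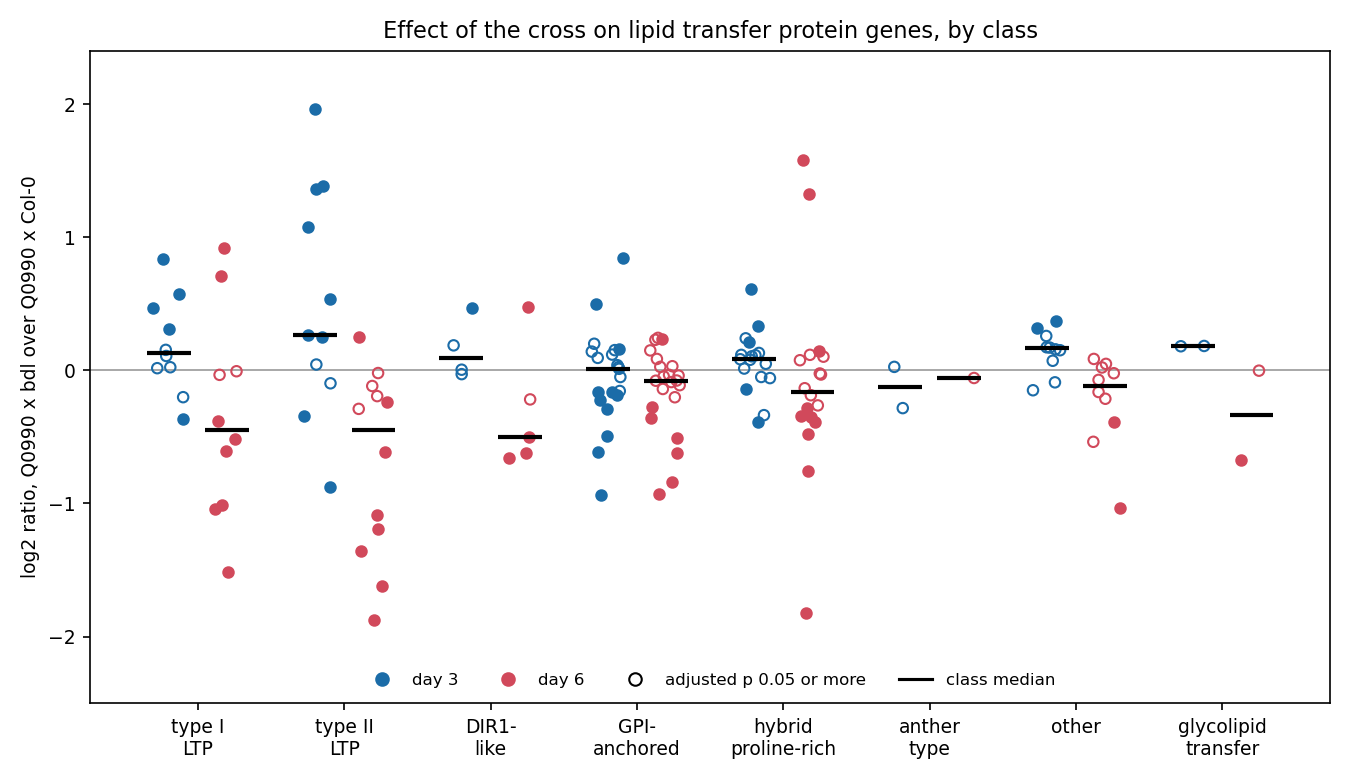
Log2 ratio of Q0990 x bdl to Q0990 x Col-0 (vertical axis) for every tested member, grouped by class (horizontal axis), with day 3 in blue and day 6 in red. Each point is 1 gene, filled where it was called, and black bars are class medians; type II genes reach from -0.88 to 1.96 on day 3 and down to -1.88 on day 6.

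Type II lipid transfer proteins are smaller than type I proteins and have a more flexible lipid pocket. The strongest member of all on day 3 was AT1G43667, with ratios of 1.61, 2.18, 1.82 and 2.23 on arrays 1 to 4. On day 6 the same arrays in order gave -1.48, -1.76, -1.45 and -1.78. All 4 arrays of day 3 were thus well above 0 and all 4 of day 6 well below it. The day 3 rise was 3.89-fold (log2 1.96 ± 0.30 (SD, n = 4), adjusted p = 1.68e-05) and the day 6 fall 3.07-fold (log2 -1.62 ± 0.17 (SD, n = 4), adjusted p = 3.74e-05).

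Its neighbours on chromosome 1, AT1G43665 and AT1G43666, and AT5G38195 on chromosome 5 did the same. AT1G43665 gave 1.37, 1.42, 1.32 and 1.42 on day 3 and -1.55, -1.16, -1.32 and -1.38 on day 6. Its means were 1.38 ± 0.048 (SD, n = 4) (adjusted p = 9.32e-06) and -1.36 ± 0.16 (SD, n = 4) (adjusted p = 8.00e-06), the smallest spread of the group on day 3. For AT5G38195 the means were 1.36 ± 0.072 (SD, n = 4) on day 3 (adjusted p = 7.24e-06) and -1.09 ± 0.16 (SD, n = 4) on day 6 (adjusted p = 1.40e-05), with array 1 of day 6 at -1.32 and the other 3 between -1.02 and -0.99. AT1G43666 had 1.08 ± 0.15 (SD, n = 4) on day 3 (adjusted p = 2.49e-05) and -1.19 ± 0.14 (SD, n = 4) on day 6 (adjusted p = 1.72e-05). Its Q0990 x Col-0 intensities on day 3 were dim, at 94.1 to 111. The 95th percentile of the blank spots in those channels was 30.1 to 87.5, so the size of its day 3 ratio is uncertain. In none of these 4 genes did an array of the one day overlap an array of the other. They are similar genes read by 1 reporter each, and no reporter sequence was used here, so cross-hybridisation between copies was not checked and the 4 are not independent readings.

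AT3G18280, also a type II gene, had the largest fall of any member on day 6. Its ratios were -2.07, -1.68, -1.90 and -1.86, a 3.67-fold fall (-1.88 ± 0.16 (SD, n = 4), adjusted p = 4.23e-06). The Q0990 x bdl intensities on day 6 were 82.8, 125, 156 and 181, above the blank spots on 3 of 4 arrays, against 505, 509, 714 and 782 for Q0990 x Col-0. The groups do not overlap. On day 3 it was only 1.19-fold higher (0.25 ± 0.15 (SD, n = 4), adjusted p = 0.0317), a call that was lost without day 3 array 1 (log2 0.26), array 2 (0.23) or array 4 (0.18).

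Other type II genes showed other patterns. AT5G38180 was lower on both days, at -0.88 ± 0.14 (SD, n = 4) on day 3 (adjusted p = 3.56e-05) and -0.61 ± 0.051 (SD, n = 4) on day 6 (adjusted p = 2.20e-04), on 4 of 4 arrays each time. AT5G38160 was slightly higher on both days, at 0.27 ± 0.091 (SD, n = 4) (adjusted p = 0.0153) and 0.25 ± 0.16 (SD, n = 4) (adjusted p = 0.0229), the day 3 call was lost without day 3 array 2 (0.24) or array 4 (0.23), and the day 6 call without day 6 array 1 (0.19) or array 3 (0.20). AT5G38170 fell on day 3 only among its calls, at -0.35 ± 0.24 (SD, n = 4) (adjusted p = 0.0151), and gave -0.021 ± 0.16 (SD, n = 4) on day 6. Its intensity reached 72522, over the 16-bit ceiling, and its day 3 call was lost without array 1 (-0.24) or array 4 (-0.33). AT2G14846 was higher on day 3 at 0.53 ± 0.33 (SD, n = 4) (adjusted p = 0.00717), with 2 arrays at 0.19 and 0.32 and 2 at 0.80 and 0.83. AT1G48750 and AT3G57310 were not called on either day, and AT1G48750 was above the blank spots in no signal of day 6. AT1G66850, measured on day 6 only, was 1.18-fold lower (log2 -0.24 ± 0.074 (SD, n = 4), adjusted p = 0.0195). This call was lost without any one of the 4 day 6 arrays.

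**Figure D2:**
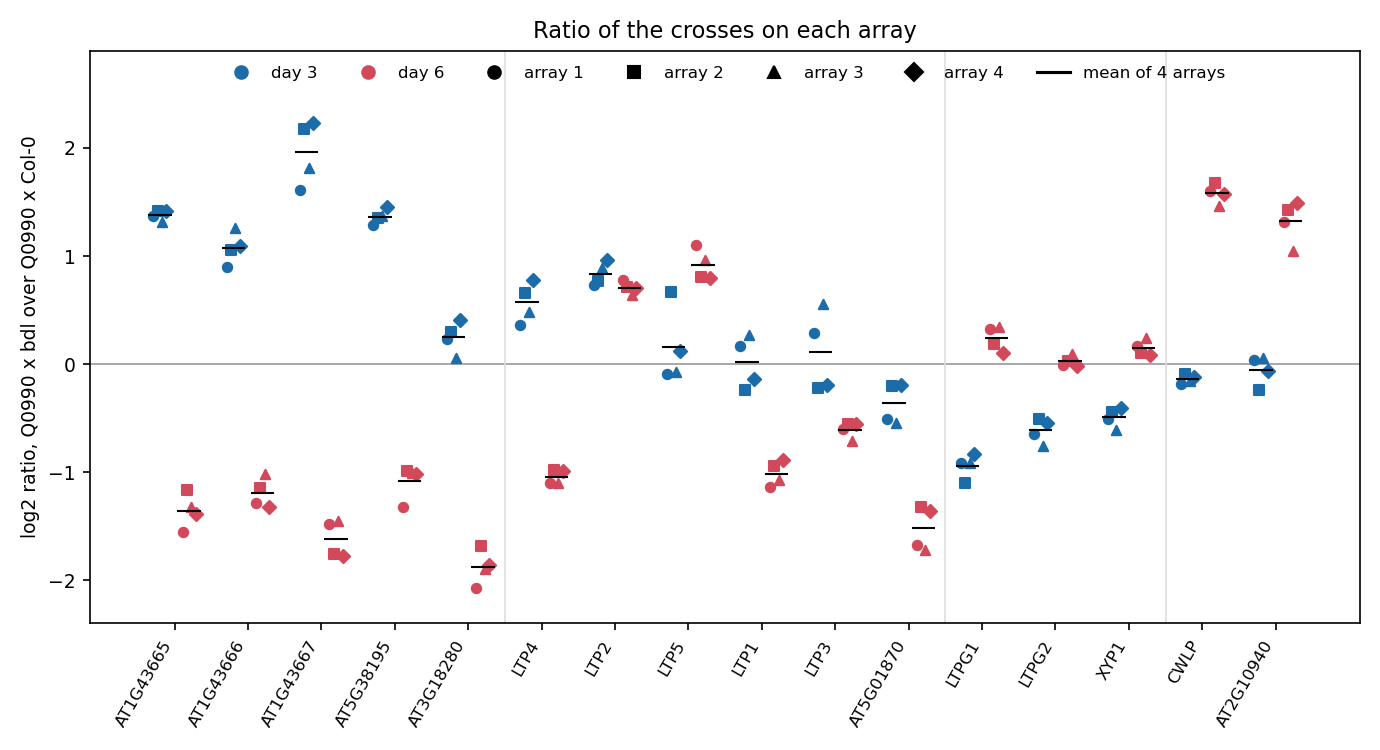
Log2 ratio of Q0990 x bdl to Q0990 x Col-0 (vertical axis) on each array for 16 members (horizontal axis), day 3 in blue and day 6 in red, with a marker shape per array and a black bar at the mean of 4 arrays. The first 5 genes are type II, the next 6 type I, the next 3 GPI-anchored and the last 2 hybrid proline-rich; AT1G43665 lies between 1.32 and 1.42 on day 3 and between -1.55 and -1.16 on day 6.

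Type I proteins are the classical lipid transfer proteins. LTP2, which helps the cuticle adhere to the epidermal wall, was higher on both days. Its ratios were 0.73, 0.77, 0.89 and 0.96 on the day 3 arrays and 0.78, 0.71, 0.64 and 0.71 on the day 6 arrays. That is a 1.79-fold rise on day 3 (0.84 ± 0.11 (SD, n = 4), adjusted p = 2.57e-05) and a 1.63-fold rise on day 6 (0.71 ± 0.058 (SD, n = 4), adjusted p = 6.03e-05). The day 6 ratio minus the day 3 ratio was -0.13 (95% interval -0.30 to 0.043, adjusted p = 0.204), so the 2 days were not shown to differ.

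LTP1, the protoderm marker that lies next to LTP2, gave day 3 ratios of 0.17, -0.24, 0.27 and -0.14, with arrays 1 and 3 above 0 and arrays 2 and 4 below it, and it was not called (adjusted p = 0.905, 95% interval -0.19 to 0.22). Its day 3 intensities of 58276 to 73377 reached over the 16-bit ceiling, and saturation flags were not used here, so the day 3 ratio rests on signals at the top of the range. On day 6, at intensities of 1681 to 22277, the ratios were -1.14, -0.94, -1.08 and -0.89, a 2.02-fold fall (-1.01 ± 0.12 (SD, n = 4), adjusted p = 1.23e-04). LTP3, which is known from drought and freezing responses, gave 0.11 ± 0.38 (SD, n = 4) on day 3 with arrays 1 and 3 above 0 and 2 and 4 below (adjusted p = 0.521, intensities up to 80955), and a 1.52-fold fall on day 6 (-0.61 ± 0.076 (SD, n = 4), adjusted p = 0.00633). LTP6 had 0.023 ± 0.22 (SD, n = 4) on day 3 (adjusted p = 0.850, intensities up to 72962) and fell 1.30-fold on day 6 (-0.38 ± 0.079 (SD, n = 4), adjusted p = 0.00854).

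LTP4, the neighbour of LTP3, turned from higher to lower. It gave 0.37, 0.66, 0.48 and 0.78 on day 3 and -1.10, -0.98, -1.10 and -0.99 on day 6. Its rise was 1.49-fold (0.57 ± 0.18 (SD, n = 4), adjusted p = 4.27e-04) and the fall 2.06-fold (-1.04 ± 0.07 (SD, n = 4), adjusted p = 3.57e-05). LTP3 and LTP4 are close copies, and their reporters may share signal. AT2G15325 followed the same order of signs at 0.31 ± 0.30 (SD, n = 4) (adjusted p = 0.0462) and -0.52 ± 0.12 (SD, n = 4) (adjusted p = 0.00646), but on day 3 array 1 stood at -0.055. It was dim, above the blank spots on 2 or 3 of 4 arrays of each group. Its day 3 call was lost without array 2 (0.18), array 3 (0.37) or array 4 (0.24), and it was lost with an offset of 16, with no offset, and with day 3 fitted alone.

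AT5G01870 was lower on both days and much more so on day 6. Its ratios were -0.51, -0.20, -0.54 and -0.20 on day 3 and -1.67, -1.32, -1.72 and -1.36 on day 6. Its falls were 1.29-fold (-0.36 ± 0.19 (SD, n = 4), adjusted p = 0.0149) and 2.86-fold (-1.52 ± 0.21 (SD, n = 4), adjusted p = 2.33e-05). The day 3 call was lost without array 1 (-0.30) or array 3 (-0.30). LTP5, which in pollen tubes acts in tip growth, rose on day 6 instead. It gave -0.091, 0.66, -0.077 and 0.12 on day 3, not called (adjusted p = 0.323), and 1.11, 0.80, 0.96 and 0.79 on day 6, a 1.89-fold rise (0.92 ± 0.15 (SD, n = 4), adjusted p = 6.64e-04).

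LTP7 was 1.38-fold higher on day 3 (0.46 ± 0.15 (SD, n = 4), adjusted p = 6.23e-04), and its 3 reporters gave 0.35, 0.54 and 0.50. On day 6 those reporters disagreed, at -0.30, 0.63 and -0.43, and the gene's mean of -0.034 ± 0.042 (SD, n = 4) averages opposite signs, so its day 6 value is uncertain. LTP12, known from the tapetum of the anther, was near the blank spots and not called on either day, at -0.20 ± 0.21 (SD, n = 4) and -0.007 ± 0.18 (SD, n = 4). AT2G18370, AT4G08530 and AT4G33355, the remaining type I genes, did not pass the filter.

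GPI-anchored proteins made up the largest class with 27 genes. LTPG1, needed for normal wax load of the stem, was the most strongly lowered member on day 3. It gave -0.92, -1.10, -0.91 and -0.83 on day 3 and 0.32, 0.19, 0.34 and 0.099 on day 6, so that every array of day 3 was below every array of day 6. Its fall was 1.92-fold (-0.94 ± 0.11 (SD, n = 4), adjusted p = 2.73e-05) and the day 6 rise 1.18-fold (0.24 ± 0.11 (SD, n = 4), adjusted p = 0.0188). The day 6 call was lost without array 1 (0.19), array 2 (0.25) or array 3 (0.21).

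LTPG2, which acts with LTPG1 in wax export, was 1.53-fold lower on day 3, with ratios of -0.64, -0.51, -0.76 and -0.54 (mean -0.61 ± 0.11 (SD, n = 4), adjusted p = 9.45e-05). On day 6 it lay at 0.026 ± 0.051 (SD, n = 4) (adjusted p = 0.746, 95% interval -0.099 to 0.15). XYP1 encodes a xylogen, a wall proteoglycan with a lipid transfer domain that promotes the differentiation of water-conducting cells. It was 1.41-fold lower on day 3 (-0.49 ± 0.09 (SD, n = 4), adjusted p = 2.21e-04) on 4 of 4 arrays, and its 2 reporters gave -0.52 and -0.47. On day 6 it lay at 0.15 ± 0.069 (SD, n = 4) (adjusted p = 0.0586). XYP2, the other xylogen gene, was not called on day 3 at -0.05 ± 0.19 (SD, n = 4) but fell 1.90-fold on day 6 (-0.93 ± 0.31 (SD, n = 4), adjusted p = 6.88e-04), and its 3 reporters gave -0.66, -1.80 and -0.32.

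Smaller falls on day 3 were those of AT2G44300 at -0.29 ± 0.066 (SD, n = 4) (adjusted p = 0.00250), AT3G22620 at -0.22 ± 0.16 (SD, n = 4) (adjusted p = 0.0492) and LTPG4 at -0.18 ± 0.12 (SD, n = 4) (adjusted p = 0.0422). The call of AT3G22620 was lost without day 3 array 2, 3 or 4 (log2 -0.18, -0.25 and -0.16), and so was that of LTPG4 (-0.15, -0.21 and -0.14). The rises of the class on day 3 were those of LTPG5, LTPG6 and AT2G27130. That of AT2G27130 was small (0.16) and was lost without day 3 array 1, 2 or 4 (0.16, 0.13 and 0.16). LTPG5 gave 0.85, 0.54, 1.02 and 0.95, a 1.79-fold rise (0.84 ± 0.21 (SD, n = 4), adjusted p = 6.47e-05), from a dim reporter that was above the blank spots on 3 of 4 arrays in each cross on day 3 and on none on day 6. LTPG6, tested on day 3 only, was 1.41-fold higher (0.49 ± 0.054 (SD, n = 4), adjusted p = 0.00152). On day 6, AT1G73550 fell 1.79-fold (-0.84 ± 0.27 (SD, n = 4), adjusted p = 3.33e-04), with array 1 at -1.25 and the other 3 between -0.74 and -0.65. AT5G09370 fell 1.54-fold (-0.62 ± 0.21 (SD, n = 4), adjusted p = 7.41e-04), at gene intensities of 1290.5 to 10173 in Q0990 x bdl and 2396 to 15249 in Q0990 x Col-0.

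Among hybrid proline-rich genes, CWLP, which encodes a cell wall and plasma membrane linker protein, had the largest rise of any member on day 6. Its ratios were 1.60, 1.68, 1.47 and 1.58, a 2.99-fold rise (1.58 ± 0.087 (SD, n = 4), adjusted p = 1.20e-06). Intensities of Q0990 x bdl were 1432, 2198, 472 and 1828 against 431, 646, 139 and 572 on the same day 6 arrays. The levels varied between arrays by more than the crosses differed, but on each array the Q0990 x bdl signal was the higher. On day 3 it was 1.10-fold lower (-0.14 ± 0.04 (SD, n = 4), adjusted p = 0.0454), a call that was lost without any one of the 4 arrays (log2 between -0.16 and -0.11).

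AT2G10940 gave 0.042, -0.24, 0.06 and -0.064 on day 3 and 1.32, 1.43, 1.05 and 1.49 on day 6, where it rose 2.50-fold (1.32 ± 0.19 (SD, n = 4), adjusted p = 2.52e-05). Both of its reporters agree, at 1.43 and 1.21. AT1G62500 was 1.31-fold lower on day 3 (-0.39 ± 0.081 (SD, n = 4), adjusted p = 4.94e-04) and 1.11-fold higher on day 6 (0.15 ± 0.058 (SD, n = 4), adjusted p = 0.0483). The day 6 call was lost without any one of the 4 arrays (log2 between 0.13 and 0.17).

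EARLI1, a gene of cold and aluminium responses, had values on day 6 only. Its ratios were -2.33, -1.37, -2.23 and -1.36, a 3.54-fold fall (-1.82 ± 0.53 (SD, n = 4), adjusted p = 0.00237). Q0990 x bdl intensities lay at 373 to 398 and those of Q0990 x Col-0 at 1032 to 2166, with no overlap. AIR1, an auxin-induced gene of root cultures, rose 1.53-fold on day 3 (0.61 ± 0.08 (SD, n = 4), adjusted p = 1.74e-04) and was above the blank spots in no signal of day 6. AZI1, which primes systemic resistance, was not called on either day, at 0.24 ± 0.082 (SD, n = 4) (adjusted p = 0.0604) and 0.076 ± 0.25 (SD, n = 4) (adjusted p = 0.547), and was likewise above the blank spots in no signal of day 6. AT4G12545 went from 0.34 ± 0.29 (SD, n = 4) on day 3 (adjusted p = 0.0251) to -0.39 ± 0.066 (SD, n = 4) on day 6 (adjusted p = 0.0172). Its day 3 call was lost without array 1 (0.27) or array 3 (0.21), and its day 6 call without array 2 (-0.37), array 3 (-0.37) or array 4 (-0.38).

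DIR1, the signal carrier of systemic resistance, was not called on day 3 at -0.029 ± 0.16 (SD, n = 4) (adjusted p = 0.779) and fell 1.41-fold on day 6 (-0.50 ± 0.12 (SD, n = 4), adjusted p = 0.00131). Its neighbour AT5G48490 gave 0.53, 0.40, 0.51 and 0.45 on day 6, a 1.39-fold rise (0.47 ± 0.059 (SD, n = 4), adjusted p = 0.00742). These neighbours were thus called in opposite directions on day 6. The rise of AT5G48490 was no longer called with an offset of 16 or none, and on day 3 array 2 stood at 0.65 and the other 3 arrays between -0.0052 and 0.096. Among the 12 genes of no class, AT4G30880 had the largest change, a 2.05-fold fall on day 6 with ratios of -0.91, -1.13, -0.92 and -1.18 (-1.04 ± 0.14 (SD, n = 4), adjusted p = 4.54e-05). It gave -0.15 ± 0.14 (SD, n = 4) on day 3 (adjusted p = 0.138). The glycolipid transfer protein genes were not called on day 3, and of the 2 only GLTP3 was called on day 6 (log2 -0.68, adjusted p = 0.0222), a call lost without day 6 array 1 (-0.61) or array 3 (-0.51). That value averages a dim reporter at -0.027 and a brighter one at -1.32, so its size is uncertain. GLTP1 was above the blank spots in no signal of day 6, so it had no measured ratio there. Leaving out both glycolipid transfer protein genes and SESA5 gave 20 rises and 13 falls among 75 tested on day 3 and 8 rises and 31 falls among 78 on day 6.

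The effect of the cross was then compared between the days, as the day 6 ratio minus the day 3 ratio in 1 fit. It was lower on day 6 for 35 of 75 members and higher for 8, where 21.8% and 19.5% of all 18840 genes were called in those directions (41.2% in either). The 35 include LTP1, LTP3, LTP6 and AT5G09370, whose day 3 ratios rest on signals at the top of the range. The median difference was -0.24, against -0.012 over all genes. The largest was that of AT1G43667 at -3.58 (SE 0.16, 95% interval -3.94 to -3.22, adjusted p = 6.90e-06), and the next were AT1G43665 at -2.74, AT5G38195 at -2.45, AT1G43666 at -2.27 and AT3G18280 at -2.12. All 5 are type II genes. LTP4 followed at -1.61 (adjusted p = 2.56e-05). In the other direction CWLP had 1.72 (SE 0.067, adjusted p = 4.48e-06), AT2G10940 1.37, LTPG1 1.18 (adjusted p = 5.49e-05), LTP5 0.76, XYP1 0.64 and LTPG2 0.64. LTPG1, XYP1 and LTPG2 were the 3 of 20 GPI-anchored genes whose ratio was called higher on day 6 than on day 3, while 7 were called in the other direction and 10 not called (median -0.08).

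Called in opposite directions on the 2 days were 11 of the 75 members tested on both. Higher on day 3 and lower on day 6 were 8 of them, AT1G43665, AT1G43666, AT1G43667, AT2G15325, AT3G18280, AT4G12545, AT5G38195 and LTP4, where 4.52% of all 18840 genes tested on both days showed this order. Lower on day 3 and higher on day 6 were LTPG1, AT1G62500 and CWLP, with a background of 4.28%. AT1G62790, AT4G14815, AT5G01870 and AT5G38180 were lower on both days, and LTP2 and AT5G38160 higher on both. The day 3 calls of AT1G62790 (-0.16) and AT4G14815 (-0.16) were each lost without any one of 3 of the 4 arrays.

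**Figure D3:**
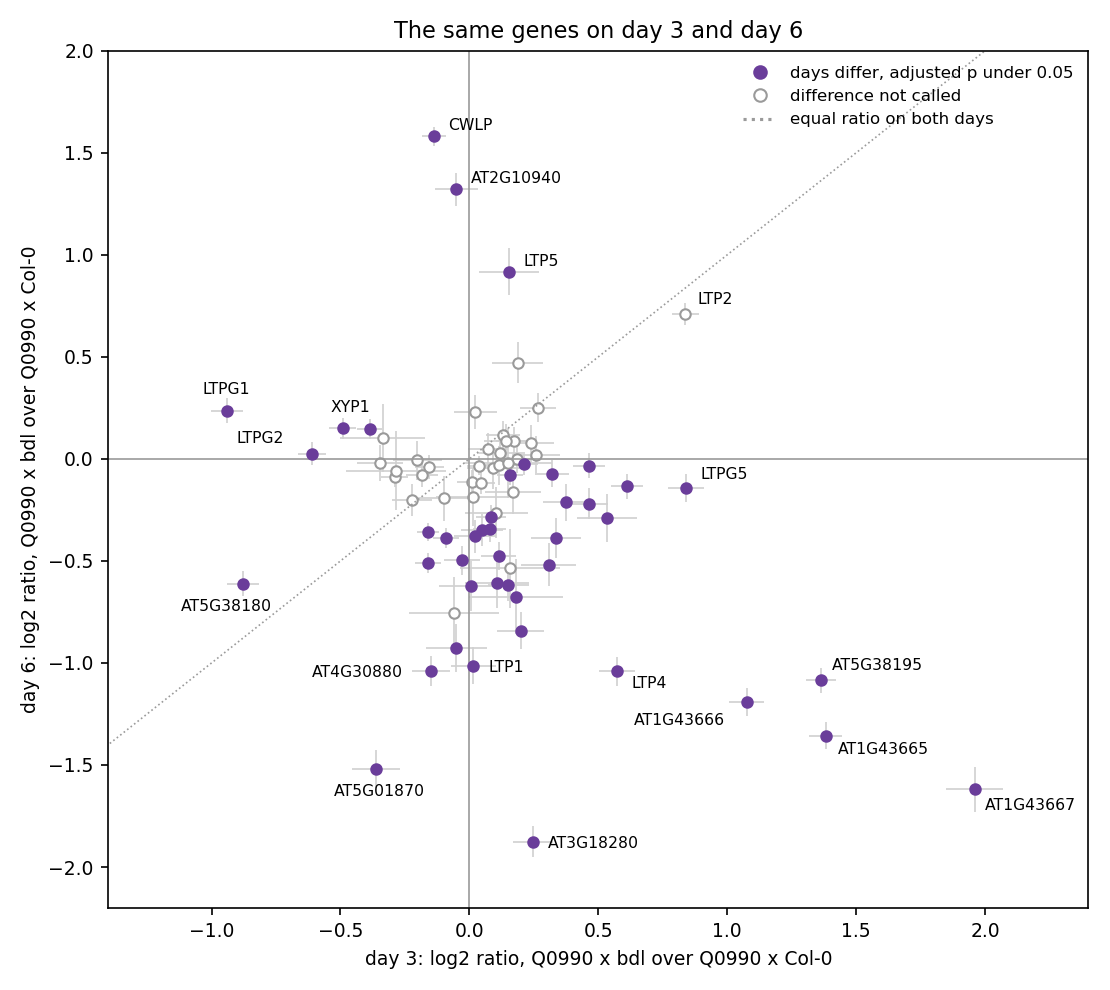
Day 3 ratio (horizontal axis) against day 6 ratio (vertical axis), both log2 of the Q0990 x bdl signal over that of Q0990 x Col-0, for the 75 members tested on both days. Each point is 1 gene with its standard errors, purple where the days differed (adjusted p under 0.05), and the dotted line marks equal ratios; the type II genes AT1G43665, AT1G43666, AT1G43667 and AT5G38195 lie at the lower right and LTPG1 at the left.

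Many members sit side by side in the genome. In the order of the reference gene table, 44 of the 95 genes formed 17 runs with at most 5 other genes between neighbours, 12 of them pairs and the largest a run of 7 on chromosome 4 that holds AZI1, EARLI1 and AIR1. On day 6, 9 runs had more than 1 called member, all in the same direction in 5 runs and in both directions in 4. On day 3 these counts were 4 runs, 2 in the same direction and 2 in both. Of the members tested, 10% were called higher and 40% lower on day 6, and 26.0% and 16.9% on day 3. Over all genes the shares were 16.2% and 19.4% on day 6, and 21.1% and 21% on day 3. How many such runs these shares alone would give was not tested. The run of AT1G43665, AT1G43666 and AT1G43667 had the same signs on each day, but these similar genes are not independent readings. The run of AT5G38160, AT5G38170, AT5G38180 and AT5G38195 did not share a direction: on day 3 its ratios were 0.27, -0.35, -0.88 and 1.36, all 4 called. AT5G38195 was the one member of that run called in opposite directions on the 2 days. LTP1 and LTP2 differed on day 6 by direction, at -1.01 and 0.71, and so did DIR1 and AT5G48490.

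**Figure D4:**
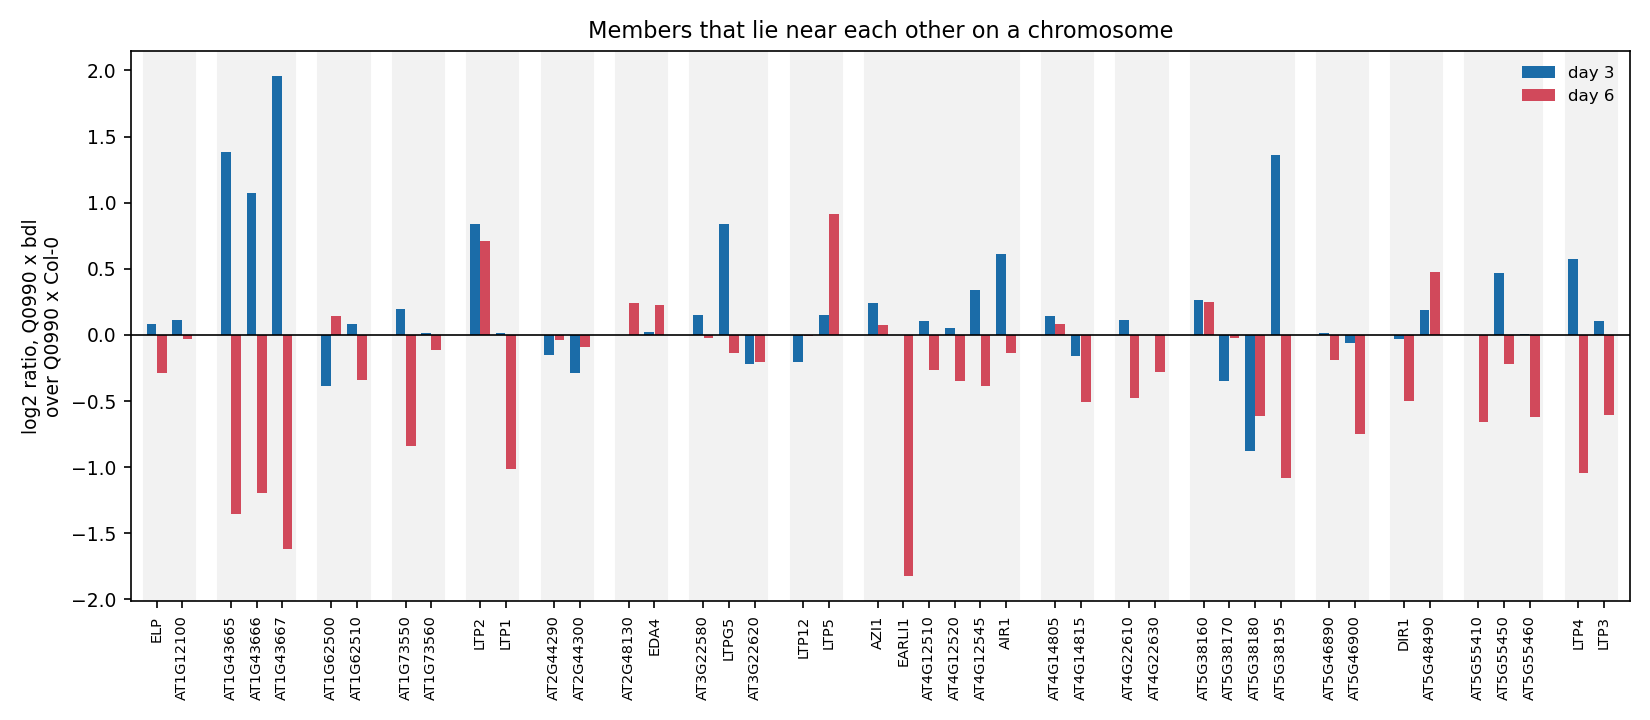
Log2 ratio of Q0990 x bdl to Q0990 x Col-0 (vertical axis) on day 3 (blue bars) and day 6 (red bars) for members that lie near each other on a chromosome, with each run shaded and genes in chromosome order (horizontal axis); a missing bar was not tested. The run of AT1G43665 to AT1G43667 shows the same pair of signs 3 times, in similar genes that are not independent readings, and LTP2 and LTP1 differ.

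Levels were also compared between the days within each cross. Each array held a single day, so this comparison runs between arrays, and day and array set cannot be told apart. In Q0990 x Col-0, 15 of 75 members were higher on day 6 than on day 3 and 18 lower, where 14% and 12.7% of all genes were. In Q0990 x bdl, 13 were higher and 20 lower, where 16.3% and 15.5% were. The all-gene median was 0.083 in Q0990 x Col-0 and 0.071 in Q0990 x bdl, and the members' medians were 0.24 and -0.041. Of 18 seed coat genes, 9 were lower and 1 higher on day 6 in each cross. Of 15 endosperm genes, 6 were lower and 1 higher in Q0990 x Col-0, and 11 lower and none higher in Q0990 x bdl. Of 6 embryo genes, 3 were lower and none higher in Q0990 x Col-0, and 1 lower and 1 higher in Q0990 x bdl. The part of these tissues in the members' values was not tested.

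Of the type I genes, LTP1, LTP3, LTP6, LTP7 and AT5G01870 went down between the days in both crosses. LTP3 intensities were 52871 to 72235 in Q0990 x Col-0 on day 3 and 1568 to 3745 on day 6, a 24.2-fold fall (log2 -4.60, SE 0.42, adjusted p = 6.21e-07). In Q0990 x bdl the fall was 39.7-fold (log2 -5.31, SE 0.42, adjusted p = 8.16e-08). Since the day 3 signals reached over the 16-bit ceiling, these folds rest on the top of the range. LTP1 fell 6.94-fold in Q0990 x Col-0 and 14.2-fold in Q0990 x bdl, AT5G01870 6.21-fold and 13.8-fold, LTP7 4.38-fold and 6.19-fold, and LTP6 4.31-fold and 5.70-fold. The day 3 signals of LTP1 and LTP6 likewise reached over the 16-bit ceiling, so their folds and the contrast between the crosses carry the same limit. LTP7 averages reporters whose day 6 ratios disagreed, at -0.30, 0.63 and -0.43, so the contrast of its folds between the crosses is uncertain. Each of these falls was called, with adjusted p-values up to 1.40e-04. AT2G15325 rose 2.83-fold in Q0990 x Col-0 (log2 1.50, adjusted p = 0.00704). LTP5 had log2 1.10 in Q0990 x Col-0, not called (adjusted p = 0.0673), and rose 3.63-fold in Q0990 x bdl (adjusted p = 0.00313).

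AT2G14846, a type II gene, also fell in both crosses. Its day 3 intensities were 23764 to 37726 in Q0990 x Col-0 and 32145 to 49236 in Q0990 x bdl, and on day 6 they were 189 to 426 and 132 to 355. The normalised log2 level fell by 6.39 in Q0990 x Col-0 (SE 0.39, adjusted p = 4.95e-09) and by 7.21 in Q0990 x bdl (SE 0.39, adjusted p = 8.30e-10). On day 6 it was above the blank spots on 2 of 4 arrays in Q0990 x Col-0 and 3 of 4 in Q0990 x bdl. AT1G48750, another type II gene, was above the blank spots on all day 3 arrays and in no signal of day 6. It was at least 14.1-fold lower on day 6 in Q0990 x Col-0 (adjusted p = 4.46e-07) and at least 18.2-fold lower in Q0990 x bdl (adjusted p = 2.48e-07). Its mean normalised log2 levels were 11.58 and 7.23 in Q0990 x Col-0 and 11.48 and 7.03 in Q0990 x bdl. For an "at least" fold the day 6 level of each array is taken as the dimmest kept signal over the blanks, or as that gene's signal where this is brighter. GLTP1, which moves sphingolipids between membranes, was at least 12.7-fold lower on day 6 in Q0990 x Col-0 (adjusted p = 7.44e-10) and at least 20.7-fold lower in Q0990 x bdl (adjusted p = 3.67e-10). The GPI-anchored gene AT1G73550 fell 10.9-fold and 22.4-fold, and AT5G09370 5.56-fold and 9.48-fold. A reporter of AT5G09370 reached 79495, over the 16-bit ceiling, so its folds also rest on signals at the top of the range. Its normalised log2 level on day 3 array 1 was 13.42 in Q0990 x Col-0 and 13.66 in Q0990 x bdl. The other day 3 arrays lay at 15.50 to 15.62 and 15.58 to 15.84. Its folds include that lower array, so their size is uncertain.

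In the same interval other type II genes rose. AT5G38160 had intensities of 533 to 1021 in Q0990 x Col-0 on day 3 and 9065 to 37647 on day 6. It rose 24.2-fold in Q0990 x Col-0 (log2 4.60, SE 0.31, adjusted p = 1.73e-08) and 24.0-fold in Q0990 x bdl (log2 4.58, SE 0.31, adjusted p = 1.31e-08). AT5G38180 rose 3.39-fold and 4.07-fold. AT5G48490 of the DIR1-like class rose 14.8-fold (adjusted p = 5.19e-06) and 18.0-fold (adjusted p = 1.62e-06) from day 3 signals that were above the blank spots on 2 of 4 arrays in each cross. AT2G10940 rose 4.83-fold in Q0990 x Col-0 and 12.5-fold in Q0990 x bdl, XYP1 2.63-fold and 4.10-fold, AT4G30880 5.59-fold and 3.02-fold, and AT5G46900 5.69-fold and 3.52-fold. The call of AT5G46900 in Q0990 x bdl (log2 1.81, adjusted p = 0.0349) was lost without array 2 or 3 of day 3 (1.82 and 1.84) and without array 2, 3 or 4 of day 6 (1.82, 1.73 and 1.73).

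The 4 type II genes with opposite ratios on the 2 days had different courses in the 2 crosses, side by side as follows. AT1G43667 rose 7.08-fold in Q0990 x Col-0 (log2 2.82, adjusted p = 9.09e-05), and in Q0990 x bdl its change was -0.75 (adjusted p = 0.180). AT1G43666 rose 8.32-fold (adjusted p = 8.19e-07) and 1.73-fold (adjusted p = 0.0466), and AT5G38195 rose 3.69-fold in Q0990 x Col-0 and had a log2 change of -0.56 in Q0990 x bdl (adjusted p = 0.154). The 8.32-fold rise of AT1G43666 starts from dim day 3 signals of 94.1 to 111, so its size is uncertain. AT1G43665 had 0.45 in Q0990 x Col-0 (adjusted p = 0.312) and fell 4.89-fold in Q0990 x bdl (adjusted p = 3.29e-05). The test that the 2 courses differ is the test of the difference between days given above, which these 4 genes passed. AT3G18280 rose 2.00-fold in Q0990 x Col-0 (adjusted p = 0.0335) and fell 2.18-fold in Q0990 x bdl (adjusted p = 0.0147). The Q0990 x Col-0 call of AT3G18280 was lost with an offset of 16 or none and without any one of 6 arrays (log2 0.85 to 1.03), and the Q0990 x bdl call without day 3 array 2 (-0.97). The Q0990 x bdl call of AT1G43666 was lost without any one of 7 arrays (log2 0.69 to 0.86). LTPG1 had a log2 change of -0.18 in Q0990 x Col-0 (adjusted p = 0.616) and rose 2.00-fold in Q0990 x bdl (adjusted p = 0.00394), and LTPG2 was not called in either cross, at -0.15 and 0.49.

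**Figure D5:**
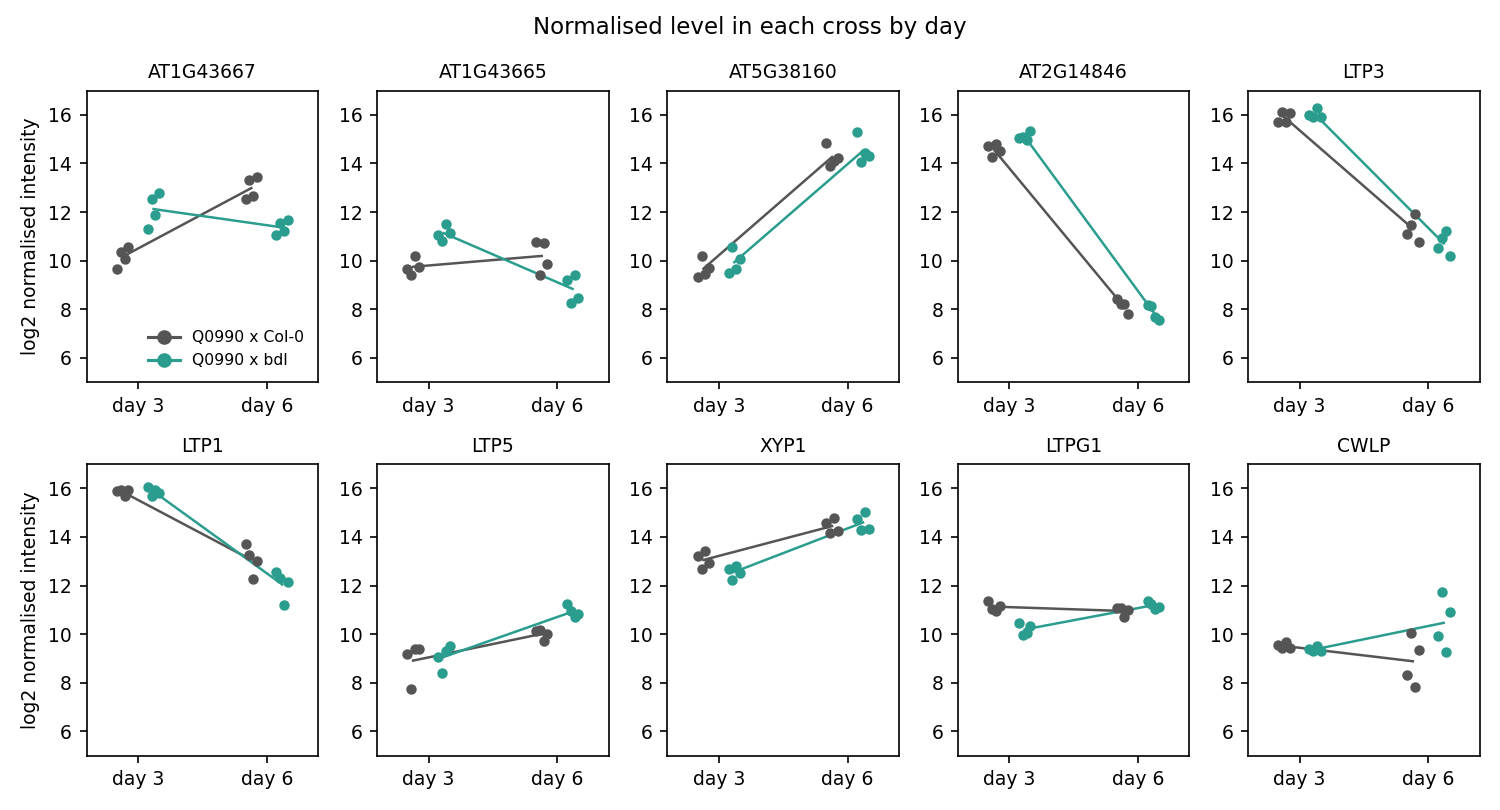
Log2 normalised intensity (vertical axis) of 10 members on day 3 and day 6 (horizontal axis), with Q0990 x Col-0 in grey and Q0990 x bdl in green, 1 point per array and lines between the means of 4 arrays. Levels may be compared within a panel but not between genes; AT1G43667 goes from 10.16 to 12.99 in Q0990 x Col-0 and from 12.12 to 11.37 in Q0990 x bdl.

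Genes that make and export cuticle lipids were set beside the members. Of 33 on the list, 28 were tested on day 3, with 9 higher and 7 lower (median -0.019), shares of 32.1% and 25% where 21.1% and 21% of all genes were called. Of 27 tested on day 6, 5 were higher and 2 lower (median 0.045), shares of 18.5% and 7.41% against 16.2% and 19.4%. WSD1, a wax ester synthase, had 1.39 ± 0.58 (SD, n = 4) on day 3 (adjusted p = 5.48e-04) and CER1, of alkane synthesis, 0.93 ± 0.16 (SD, n = 4) (adjusted p = 5.34e-05). Lowest on day 3 were CER6 at -0.55 ± 0.055 (SD, n = 4) (adjusted p = 1.54e-04) and PAS2 at -0.54 ± 0.064 (SD, n = 4) (adjusted p = 1.19e-04), both of very-long-chain fatty acid elongation. CER6 was higher on day 6 at 0.53 ± 0.11 (SD, n = 4) (adjusted p = 2.67e-04), as was HTH, of cutin synthesis, at 0.46 ± 0.066 (SD, n = 4) (adjusted p = 2.00e-04). CYP86A4, a fatty acid hydroxylase, was lower on day 6 at -0.78 ± 0.16 (SD, n = 4) (adjusted p = 1.01e-04), and ABCG32, a cutin precursor exporter, at -0.44 ± 0.078 (SD, n = 4) (adjusted p = 1.92e-04).

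Of 12 epidermis genes, 2 were higher and 5 lower on day 3 (median -0.097), shares of 16.7% and 41.7% against the same all-gene shares of 21.1% and 21%. On day 6, 4 were higher and none lower (median 0.072), and 33.3% stands against 16.2% of all genes. PDF1, a protoderm marker, had -0.84 ± 0.16 (SD, n = 4) on day 3 (adjusted p = 6.05e-05) and 0.30 ± 0.11 (SD, n = 4) on day 6 (adjusted p = 0.0106). GSO1, a receptor kinase of the embryonic cuticle, had -0.72 ± 0.062 (SD, n = 4) on day 3 (adjusted p = 9.53e-05). Higher on day 3 were HDG2 at 0.80 ± 0.075 (SD, n = 4) (adjusted p = 1.29e-05) and ANL2 at 0.42 ± 0.13 (SD, n = 4) (adjusted p = 8.99e-04), both homeodomain factors, and on day 6 FDH, of surface lipid synthesis, at 0.48 ± 0.051 (SD, n = 4) (adjusted p = 2.02e-04). Summed epidermis intensity on day 3 was 45393 to 64998 in Q0990 x bdl and 73351 to 94226 in Q0990 x Col-0, without overlap, and on day 6 it was 37304 to 77300.0 and 30457 to 60455. Such a sum weighs bright genes most and does not speak for the whole list, of which 5 of 12 genes were not called on day 3. LTPG1, LTPG2 and PDF1 were lower together on day 3, while HDG2 was higher. LTP1 was not called there, but its day 3 signals reached over the 16-bit ceiling. Its day 3 ratio therefore cannot show whether its level differed. The part of epidermal cell number in the members' values was not tested.

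13 members did not pass the filter: AT2G18370, AT4G08530 and AT4G33355 of type I, AT1G73780 of type II, AT1G36150, AT1G73890, AT4G12360 and AT5G13900 of the GPI-anchored class, AT2G45180 and AT4G12490 of the hybrid proline-rich class, AT4G22490 and AT5G05960 of no class, and SESA5. 11 of them had no values on the day 3 arrays. Their highest intensity on any array was 402.7, that of SESA5, which exceeded the blank spots in 2 of its signals. Their change between the crosses was not tested.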

How the data were processed

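RNA of isolated embryos was measured on 8 two-colour arrays, 4 per day, each array holding Q0990 x bdl in one channel and Q0990 x Col-0 in the other. The authors deposited 1 table per array with a linear intensity for each channel and spot. Per the labels' protocols, total RNA was extracted with RNAqueous-Micro and amplified before labelling. The image software, the background treatment and any normalization of the deposited intensities are not given in the sources used here. Scanner files were not used, so saturated spots could be read only from their level. Some intensities lay over the 16-bit ceiling, so they are not plain 16-bit scanner values.

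From these values, log2 ratios were computed after adding an offset of 50 to both channels and were normalised within each array by loess (span 0.3, 4 iterations). Background was not subtracted. A reporter was kept if at least 4 of its 16 signals lay over the 95th percentile of blank spots in that channel, 75 miRNA reporters were left out, and reporters of a gene were averaged. Ratios were fitted with limma (version 3.58.1, R 4.3.3) with terms for day 3, day 6 and dye over all 8 arrays, requiring 3 arrays per day. Days were compared within a cross by the separate-channel model after Aquantile scaling, with an intraspot correlation of 0.946 (statmod 1.5.0). Adjusted p-values are Benjamini-Hochberg over all genes tested. p-values measure the spread between these samples. The number of arrays limits the precision, and intensities do not compare between genes. The fits were tested on simulated data first.

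Gene names came from the array descriptions and the RefSeq gene table, which also gave chromosome order. Named were, for each comparison between crosses, the 10 largest rises and falls among called members, the 8 largest for each comparison between days, the type I genes, LTPG1, LTPG2, DIR1, AZI1, EARLI1 and members called in opposite directions. Others were named to complete a class, after their values were seen. The members and gene lists were chosen with earlier results of these data known, and the embryo list and IAA12 were added after the results were seen. Alternatives were other offsets, background correction, filters, reporter summaries, scalings, dye terms, a replicate block and leaving out each array. A further 5 were chosen after seeing the data: fitting each gene model, 2 other dye orientations, scaling over reporters present on all arrays, and fitting each cross alone.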

Additional observations from a re-analysis of the deposited data

Results flagged for a closer look

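In 97 groups of 4 arrays, 5 single arrays stood apart from the other 3 by Dixon's 95% critical value, where chance gives about 1 in 20 groups. AT1G73550 was at -1.25 on day 6 array 1 and between -0.74 and -0.65 on the other 3. AT5G38195 was at -1.32 on that array and between -1.02 and -0.99 on the others. AT5G55460 was at 0.0036 on that array and between -0.85 and -0.81 on the others. AT4G14815, a GPI-anchored gene lower on both days, was at -0.62 on day 6 array 4 and between -0.48 and -0.46 on the others. AT5G48490 was at 0.65 on day 3 array 2 and between -0.0052 and 0.096 on the others.

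For 34 of the genes named here the day 6 ratio and the day 3 ratio differed (limma, adjusted p under 0.05). The naming rule itself takes the members with the largest such differences, so this count follows in part from that rule. Of all 75 members tested, 35 were called lower and 8 higher for the difference, where 21.8% and 19.5% of all genes were. The 4 genes with the largest negative differences are type II genes that read as higher in Q0990 x bdl on day 3 and lower on day 6: AT1G43667 at -3.58 (adjusted p = 6.90e-06), AT1G43665 at -2.74, AT5G38195 at -2.45 and AT1G43666 at -2.27. AT3G18280 at -2.12 and LTP4 at -1.61 followed. AT5G01870 had -1.16, AT1G73550 -1.04, LTP1 -1.03, LTPG5 -0.98, AT4G30880 -0.89, XYP2 -0.88, GLTP3 -0.86, AT2G15325 -0.82 and AT2G14846 -0.82. AT5G09370 had -0.77, AIR1 -0.75, AT4G12545 -0.72, LTP3 -0.71, AT5G55460 -0.63, LTP7 -0.50, DIR1 -0.47, LTP6 -0.40, AT4G14815 -0.35, AT2G27130 -0.24 and AT1G62790 -0.20. The positive differences were those of CWLP at 1.72, AT2G10940 at 1.37, LTPG1 at 1.18, LTP5 at 0.76, XYP1 at 0.64, LTPG2 at 0.64, AT1G62500 at 0.53 and AT5G38180 at 0.27. Their adjusted p-values ran up to 0.0382, that of AT5G38180. LTPG5 and AIR1 were above the blank spots in no signal of day 6, so their differences set a day 3 ratio against a day with no measured ratio and have no readable size. The call of AT5G38180 was lost without any one of 6 arrays and that of LTP6 without any one of 4. The difference of LTP7 averages reporters that disagreed in sign on day 6, so it is uncertain. For LTP1, LTP3, LTP6 and AT5G09370 the day 3 ratio rests on signals at the top of the range. The size of their differences is therefore uncertain, and these genes count among the 35 called lower.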

How the results depend on the processing

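Values for 226 pairs of a gene and a comparison were recomputed, giving 3747 values under alternatives, of which 3523 kept their direction and their call, 142 lost the call, 44 gained one and 38 changed sign. Of the 38, 2 belonged to a called value, that of LTP7 for the difference between days, which averages 3 reporters of opposite sign. With the brightest reporter alone, and with reporters required to pass the blank spots in all 16 signals, LTP7 read 0.63 on day 6 and 0.091 for the difference. Without the filter the change from day 3 to day 6 in Q0990 x Col-0 was 0.070 for LTPG1 and 0.034 for LTPG2. DIR1 on day 3 was 0.011 with neither offset nor loess, and the difference between days of AT5G48490 was -0.078 with no offset and -0.19 with neither. With the dye orientation read from the blank spots, an alternative chosen after seeing the data, LTP12 was 0.068 on day 6 and the difference of AT5G38160 was 0.0086. Leaving out 1 array at a time, uncalled values crossed 0: on day 3 LTP1 ran from -0.070 to 0.10, LTP6 from -0.065 to 0.10, AT3G57310 from -0.0043 to 0.084, AT2G10940 from -0.095 to 0.026, LTP5 from -0.016 to 0.29, DIR1 from -0.070 to 0.053, LTP3 from -0.062 to 0.24 and XYP2 from -0.11 to 0.046. On day 6 GLTP1 ran from -0.074 to 0.063, LTP12 from -0.12 to 0.068, LTPG2 from -0.0061 to 0.045, AT5G38170 from -0.076 to 0.069 and AZI1 from -0.028 to 0.18. The differences of AT3G22620, AT5G38160 and AT1G48750 ran from -0.054 to 0.091, from -0.077 to 0.047 and from -0.25 to 0.044. GLTP1, LTP12, AZI1 and AT1G48750 were above the blank spots in no signal of day 6, so their day 6 values are not measured ratios. Counts of called members moved over 1.5 times as follows. Without the filter, 28 members were higher on day 6 in Q0990 x Col-0 and 20 in Q0990 x bdl. Under that strict filter, which tests fewer genes, the counts were 10 higher on day 3, 18 lower on day 6, 18 lower for the difference, 9 higher and 8 lower in Q0990 x Col-0, and 7 higher and 10 lower in Q0990 x bdl. With day 3 fitted alone, 7 were lower. Leaving out 1 array moved only the falls of day 3 and the rises of day 6 over 1.5 times. The full ranges were 15 to 17 higher and 7 to 9 lower on day 3, and 5 to 7 and 28 to 30 on day 6. They were 7 to 9 and 29 to 36 for the difference, 14 to 17 and 17 to 18 in Q0990 x Col-0, and 9 to 14 and 19 to 21 in Q0990 x bdl. Over all genes, 8036 were called on day 3, 5053 under the strict filter and 5243 with the day fitted alone. On day 6 6935 were called, 4549 without array 1 and 4504 without array 3. Under the strict filter 5141 were called against 7765 for the difference, 2350 against 5025 in Q0990 x Col-0 and 3009 against 5994 in Q0990 x bdl. The replicate numbers do not pair the arrays of the 2 days: their deviations from the day means correlated at -0.21, -0.18, -0.15 and -0.26, and no array correlated best with its own number. With the replicate block, 8 members were lower on day 3, and of the values given here 11 lost their call and 5 gained one. Taking arrays 1 and 3 against 2 and 4 as the dye pairs of day 3, also chosen after seeing the data, changed no sign, lost no call and added 4. The cause of these shifts was not tested. No depth can be stated for arrays, and genes near the blank spots (AT2G15325, LTPG5, LTP12) have the least certain ratios.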
